A study of Mus musculus with 284 samples.

Results

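S-phase cells outside G2/M were 59 of the 284 tumour propagating cells profiled one by one from mouse skin tumours. A cell was counted in this class by 2 scores, each the mean of log2(CPM + 1) over 8 genes, where CPM is the count of a gene scaled by the total counts of its cell, in the usual counts-per-million unit. The S score used Mcm2, Mcm3, Mcm5, Mcm6, Pcna, Tyms, Rrm2 and Dtl, and the G2/M score used Mki67, Top2a, Cdk1, Ccnb1, Birc5, Ube2c, Cenpf and Tpx2. Within each mouse, a member lay among the highest 1 in 3 cells by the S score and not among the highest 25% by the G2/M score. The class held 16 of 69 cells (23.2%) of wild-type mouse WT1, 13 of 88 (14.8%) of wild-type mouse WT2, 14 of 73 (19.2%) of mouse KO1 and 16 of 54 (29.6%) of mouse KO3. The shares follow partly from the rule, because they fall as more of a mouse's highest S scores lie in its G2/M cells. Of the other 225 cells, 73 made up the highest 25% by the G2/M score in their mouse and are called the G2/M cells. They numbered 18, 22, 19 and 14 per mouse in the same order. The 152 remaining cells were in neither class (35, 53, 40 and 24).

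All 4 mice received DMBA, a mutagen, once at 8 weeks of age and then TPA, a tumour promoter, for more than 20 weeks. All carried a lox-stop-lox YFP reporter at ROSA26 and Cre driven by the keratin 14 promoter, which is active in basal keratinocytes, and KO1 and KO3 are labelled Sirt6-/-. Tumours were dissociated with trypsin, and live cells positive for CD34, CD49f (integrin alpha 6) and YFP were sorted singly into 96-well plates and sequenced by Smart-seq2. Each genotype has 2 mice, every comparison is made over mice and not over cells, and lists of 4 values below follow the order WT1, WT2, KO1, KO3.

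S phase is the stage in which the genome is copied once. Origins are licensed by loading the MCM2-7 helicase in G1, and in S phase CDC45 and the GINS complex activate that helicase. DNA polymerases, primase, the PCNA clamp and its loader then copy both strands, while nucleotide synthesis, chromatin assembly and repair enzymes act alongside. Transcription of many of these genes is driven by E2F factors and restrained by the pocket proteins, whereas many mitotic genes are transcribed later through CHR elements bound by DREAM and MuvB complexes. In the epidermis, cell division belongs to the basal layer and to the tumour cells derived from it.

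Promoter letters of 4 genes are shown, 1 pair for each of 2 contrasts. Rbl1 and Pola1 lay higher in the members than in the other cells. Against the G2/M cells alone their log2 differences were small, at 0.305 and 0.288. Kif11 and Ckap2l lay lower in the members than in the G2/M cells. The sequences are RefSeq windows of build GRCm38.p6, upstream of the start site and on the strand of the gene, with E2F-type letters in capitals for the first pair and CHR letters for the second pair.
Rbl1, chr2:157204535-157204588, minus strand: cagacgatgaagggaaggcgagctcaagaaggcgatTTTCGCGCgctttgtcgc
Pola1, chrX:93632250-93632329, minus strand: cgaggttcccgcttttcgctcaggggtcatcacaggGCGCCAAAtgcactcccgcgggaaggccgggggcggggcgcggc
Kif11, chr19:37376327-37376381, plus strand: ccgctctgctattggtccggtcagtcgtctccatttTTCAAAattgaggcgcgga
Ckap2l, chr2:129297213-129297278, minus strand: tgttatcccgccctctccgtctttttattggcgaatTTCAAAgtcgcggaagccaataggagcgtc
The first base of the match lay 18, 138, 19 and 30 bases before the start site in these 4 genes. No annotated exon overlapped the printed stretches. E2F-type letters were TTTGGCGC, TTTCCCGC, TTTCGCGC or TTTGCCGC, and CHR letters were TTTGAA or TTCGAA, each searched on both strands from 250 bases before to 50 bases after the start. A window held E2F-type letters in 29 of 124 cases (23.4%) for the replication and repair genes described below, of which 104 of 125 had a window. The share was 7 of 17 (41.2%) for origin licensing genes, 10 of 31 (32.3%) for polymerase genes, 1 of 25 (4.0%) for nucleotide supply genes and 1 of 40 (2.5%) for mitosis genes, against 744 of 32851 windows (2.3%) of all genes. CHR letters stood in 34 of 40 windows (85.0%) of mitosis genes, 20 of 124 (16.1%) of replication and repair genes and 6316 of 32851 (19.2%) of all genes. These matches describe letters in a window and are not binding sites.

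**Figure D1:**
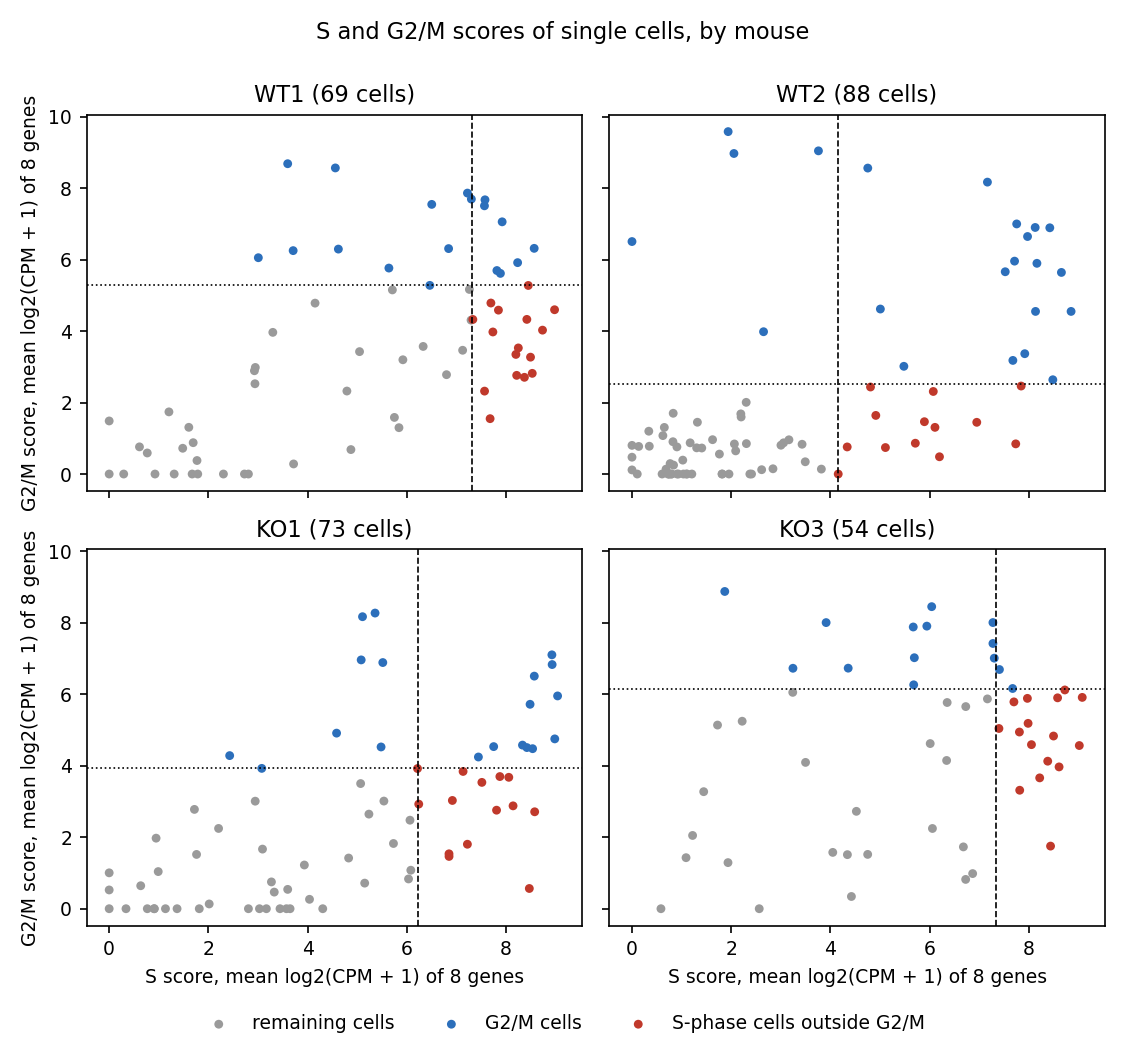
Each point is 1 cell of the 4 mice, with the S score on the x axis and the G2/M score on the y axis, both mean log2(CPM + 1), coloured by class, with a dashed line at each mouse's S limit and a dotted line at its G2/M limit. The S limit is 4.16 in WT2 and 6.22 to 7.34 in the other mice, and the members occupy the area to the right of it and below the G2/M limit.

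The values that chose the members are given here as a description and are not tested. The S limit was 7.31, 4.16, 6.22 and 7.34, and the members' median S score was 8.23, 5.90, 7.37 and 8.30 against 2.93, 1.11, 3.06 and 4.38 in the remaining cells. WT2 stood apart with the lowest limit on both scores. Its members' median S score of 5.90 lay below the S limit of every other mouse. With 1 limit over all cells, 3 of the 13 WT2 members stayed in the class. The last cell inside and the first outside the S limit scored 7.33 and 7.3, 4.16 and 3.82, 6.22 and 6.08, and 7.4 and 7.31, and 13, 4, 6 and 11 cells lay within 0.5 log2 units of it. The highest member and the lowest excluded cell on the G2/M score were at 5.28 and 5.61, 2.46 and 2.64, 3.92 and 4.25, and 6.12 and 6.16. Among the highest 1 in 3 by S score, 30.4%, 56.7%, 44% and 11.1% lay in the G2/M cells and were thereby left out. The G2/M cells themselves had S medians of 7.03, 7.7, 7.75 and 5.82, above the members' median in WT2 and KO1 and below it in WT1 and KO3. Their name is relative to the mouse. The G2/M limit of WT2, 2.51, lay below the members' median G2/M score in WT1, KO1 and KO3 (3.75, 2.9 and 4.89). Some cells called G2/M in WT2 thus scored lower on G2/M than members of other mice.

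Of the S score genes, counts of all 8 were found in 38 of 59 members (64.4%), and of at least 6 in 56. WT2 was the low mouse, with all 8 in 3 of 13 members, against 13 of 16, 7 of 14 and 15 of 16. Mcm6, a subunit of the replicative helicase, had counts in 59 of 59 members and 77 of 152 remaining cells. Summed per mouse and without further scaling, it stood at 637.0, 430.9, 467.4 and 610.4 CPM in the members, 177.0, 64.8, 113.0 and 178.3 in the remaining cells and 312.6, 537.6, 364.0 and 234.6 in the G2/M cells. Pcna, the sliding clamp, stood at 272.5, 85.7, 148.6 and 320.0 CPM in the members and 190.0, 202.0, 237.8 and 142.0 in the G2/M cells, so it did not separate these classes in the same direction in every mouse. Dtl, the adaptor that marks Cdt1 for destruction during replication, had counts in 44 members (74.6%), 31 of 73 G2/M cells (42.5%) and 22 remaining cells (14.5%). Members also held G2/M transcripts, with counts for a median of 4 of the 8 G2/M genes per cell, 5, 2, 4 and 6 by mouse, and 1 WT2 member had none. Cdk1, the mitotic kinase, had counts in 43 members (72.9%) and Top2a in 45, whereas Cenpf, a kinetochore protein of late G2, had counts in 5 members and 42 of 73 G2/M cells.

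The members carried the transcripts of the sorted cell type. Keratins 5 and 14 had counts in 59 of 59 members, Itga6 in 55 (93.2%) and Cd34 in 44 (74.6%). No member had counts for 2 or more markers of fibroblasts, endothelial cells, immune cells or melanocytes, and 2, 5, 11 and 4 of 59 had counts for 1 marker. The immune list was the highest of the 4 in the summed members, at 10.4, 9.0, 4.2 and 9.3 CPM with 7 of 9 markers at 0. Fibroblast markers summed to 0 to 2.4 CPM (6 of 8 at 0), endothelial markers to 0 to 1.7 CPM (5 of 7 at 0) and melanocyte markers to 0 to 0.8 CPM (4 of 6 at 0).

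Median total counts per cell were 1238694, 985014, 1199511 and 1281992 in the members and 1148958, 1051509, 1094872 and 1259060 in the other cells (mean difference 37703.3 ± 78024.4, SD, n = 4 mice; two-sided exact sign-flip permutation p = 0.375). The members had counts for a median of 7023, 6112, 6400 and 6662 genes, against 6993, 5593, 6267 and 6566 in the other cells. The difference was positive in 4 of 4 mice (mean 194.8 ± 220.3 genes, SD, n = 4; exact sign-flip permutation p = 0.125, the smallest that 4 mice allow) and was 86.7 genes without WT2. The other cells are a mixture: the G2/M cells had 7437, 6910, 6970 and 7250 genes, above the members in every mouse, and the remaining cells 6330, 5417, 5850 and 6388, below them in every mouse. Each share of cells with counts below therefore stands beside these gene numbers, and its part in those shares was not tested beyond thinning every cell to 500000 counts.

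Members differed from each other in how many replication genes were found. Of 125 genes for DNA replication and repair outside the S score, a member had counts for a median of 82 (98, 66, 78 and 94 by mouse) and a range of 35 to 108. The remaining cells had 41 (49, 34, 44.5 and 49.5), and thinning to 500000 counts left 81 and 39. The G2/M cells had 88 (89, 88, 91 and 77.5), so the members lay above them in WT1 and KO3 and below them in WT2 and KO1. Among the members of 1 mouse, the number of replication genes found followed the S score only loosely in WT1 and KO1 (Spearman rho 0.3, 0.62, 0.22 and 0.63 over 16, 13, 14 and 16 cells). With the number of all genes found in the cell, rho was 0.81, 0.55, 0.58 and 0.84. Both values are descriptions over cells, and the numbers compared in each came from the same cell's library. Of 44 mitosis genes outside the G2/M score, members had a median of 18 (18, 8, 15.5 and 26.5), the G2/M cells 34 and the remaining cells 5.5.

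**Figure D2:**
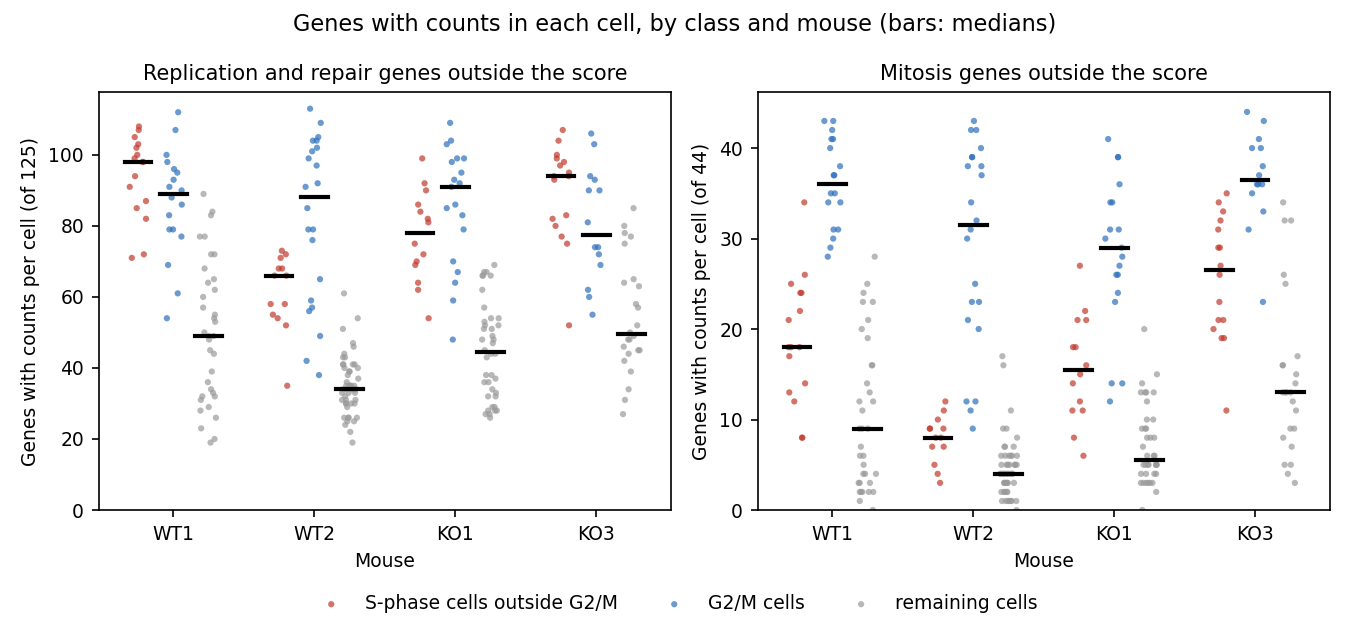
The number of replication and repair genes and of mitosis genes with counts in each cell is plotted by mouse and class, with 1 point per cell and a bar at the median. For replication genes the members' medians of 66 to 98 lie near those of the G2/M cells (77.5 to 91), and for mitosis genes they lie between the remaining cells and the G2/M cells in every mouse.

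For comparisons between classes, the counts of each class were summed per mouse and tested in edgeR with the mouse as a block, which pairs the classes within a mouse. The members were chosen on 16 genes of the same libraries, so genes that vary with those 16 differ by choice, and the comparisons describe the class and do not support it. Sums of 13 to 16 cells cannot tell fewer cells with a transcript from less transcript per cell, and shares of cells with counts are given where a result turns on it. The sums held 13508742 to 19656730 counts per mouse for the members. edgeR called 0 genes after Benjamini-Hochberg adjustment against the other cells (15958 tested), the remaining cells (15231) or the G2/M cells (14559). At an unadjusted p under 0.05 it listed 947 genes (1.72% of those tested higher and 4.22% lower), 1090 (3.01% and 4.14%) and 608 (1.79% and 2.38%). DESeq2 called 525 genes (1.11% higher and 2.55% lower), 657 (2.12% and 2.59%) and 236 (0.556% and 1.17%), and limma on the mean log2 value per cell called 14 (0.0877%) against the other cells. In simulated data of this size, edgeR recovered 21%, 33% and 28% of 4-fold changes in the 3 comparisons and 5%, 7% and 4% of 2-fold changes. The results below are therefore given as each mouse's value in CPM (scaled by TMM, edgeR's trimmed-mean method, within each comparison), the log2 difference with its SE, and the number of genes with the same direction in all 4 mice beside the share of all genes that do so.

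Against the remaining cells, 82 of 124 replication and repair genes past the filter on low counts (66.1%) were higher in the members of all 4 mice, where 6.38% of all genes tested were. Their median log2 difference was 1.38, against -0.13 over all genes, and the medians by mouse on log2(CPM + 1) were 1.44, 0.85, 1.34 and 1.21. DESeq2 called 68 of them higher (background 2.12%). Without WT2 the count was 97, where 12.09% of all genes were higher in the other 3 mice. The members had 9.53% of all genes lower in all 4 mice.

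Origin licensing genes were higher in all 4 mice in 11 of 15 cases (median 1.39). Mcm4, a helicase subunit outside the score, stood at 584.1, 293.4, 512.3 and 572.8 CPM in the members and 184.2, 67.3, 141.5 and 130.8 in the remaining cells (log2 difference 1.94, SE 0.125). Every member value exceeded every value of the remaining cells. Mcm7, its partner subunit, stood at 538.0, 246.8, 401.3 and 522.9 against 142.3, 56.41, 125.6 and 193.6 CPM (1.79, SE 0.147), again with no overlap. Restricted to genes of at least 10 CPM, edgeR called 3 genes, Mcm4 (adjusted p = 0.0170), Uhrf1 (0.0198) and Mcm7 (0.0198). Cdt1, which loads the helicase, stood at 159.2, 128.7, 119.5 and 157.8 against 54.11, 18.11, 26.25 and 67.48 CPM (1.95, SE 0.304). Its inhibitor Gmnn lay higher as well, at 119.3, 35.36, 50.02 and 104.0 against 22.23, 7.514, 24.65 and 40.95 CPM (1.75, SE 0.313). Cdc6, the other loader, had counts in 32.2% of the members and 1.3% of the remaining cells, at 58.25, 2.076, 20.81 and 35.07 against 1.342, 0, 0 and 0 CPM. Mcm9, which acts with Mcm8 in recombination, was higher in 1 mouse only.

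Helicase activation and fork genes were higher in all 4 mice in 9 of 16 cases (median 2.04). Cdc45, which completes the active helicase, stood at 149.3, 39.67, 126.5 and 120.6 CPM against 5.073, 2.281, 8.155 and 24.89 in the remaining cells (3.82, SE 0.491). It had counts in 67.8% of the members and 7.9% of the remaining cells. Gins1, a GINS subunit, stood at 36.36, 11.22, 26.47 and 26.73 against 4.724, 2.799, 5.885 and 3.021 CPM (2.56, SE 0.445). Tipin, part of the fork protection complex, stood at 228.1, 115.5, 152.8 and 185.3 against 63.13, 34.54, 50.13 and 95.39 CPM (1.54, SE 0.193). Wdhd1, which tethers polymerase alpha to the fork, was at 10.99 CPM in the WT2 members and 85.35 to 106.6 in the others, against 6.977 to 14.38 in the remaining cells. The WT2 members thus overlapped the remaining cells of other mice for Wdhd1, whereas Cdc45, Gins1 and Tipin did not overlap.

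Polymerase, primase, clamp and ligase genes were higher in all 4 mice in 25 of 30 cases (median 1.39). Pola1, the catalytic subunit that starts each strand and whose promoter letters are printed above, stood at 115.8, 83.1, 98.04 and 160.5 CPM against 35.4, 42.59, 21.48 and 55.61 (1.60, SE 0.236). Pold1, the lagging-strand polymerase, stood at 143.3, 143.6, 191.1 and 163.3 against 40.48, 32.43, 30.21 and 85.26 CPM (1.90, SE 0.307). For both genes the lowest member exceeded the highest of the remaining cells. Lig1, which seals Okazaki fragments, stood at 253.9, 151.8, 229.7 and 296.1 against 65.87, 24.38, 31.58 and 107.5 CPM (2.23, SE 0.275). Rfc2, a clamp loader subunit, stood at 153.5, 110.2, 143.5 and 167.8 against 68.74, 49.8, 41.15 and 67.45 CPM (1.35, SE 0.169). Pclaf, which binds PCNA, was more uneven, at 135.7, 29.29, 67.34 and 217.5 against 30.63, 2.511, 7.946 and 39.13 CPM (2.80, SE 0.291), and the WT2 members lay below the remaining cells of WT1 and KO3.

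Nucleotide supply genes were higher in all 4 mice in 11 of 22 cases, with the lowest median of the replication lists (0.61). Rrm1, the large subunit of ribonucleotide reductase, stood at 721.1, 407.8, 656.5 and 1047 CPM against 342.5, 181.3, 219.4 and 500.4 (1.22, SE 0.122). Each mouse's members were about 2-fold above its own remaining cells or more, and the WT2 members overlapped the remaining cells of KO3. Dut, which removes dUTP, stood at 114.0, 50.05, 86.95 and 127.8 against 28.83, 17.75, 35.33 and 68.99 CPM (1.42, SE 0.226). Tk1, thymidine kinase, was higher in 3 of 4 mice, and in KO3 was 146.5 against 149.4 CPM.

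Chromatin assembly and maintenance genes were higher in all 4 mice in 13 of 15 cases (median 1.21). Uhrf1, which brings the maintenance methylase to new DNA, stood at 414.4, 83.33, 219.2 and 338.9 CPM against 70.7, 20.18, 24.72 and 63.88 (2.54, SE 0.211). It had counts in 54 of 59 members (91.5%; exact Clopper-Pearson 95% interval 81.3% to 97.2%) and in 37 of 152 remaining cells (24.3%; 17.8% to 32%), and these intervals cover counting error only. Dnmt1, that methylase, was nearly level over the mice, at 206.7, 195.1, 197.3 and 239.8 against 85.68, 87.39, 45.27 and 75.17 CPM (1.56, SE 0.2), with no overlap. Chaf1b, a subunit of the assembly factor CAF-1, stood at 137.1, 59.27, 96.78 and 149.6 against 39.08, 6.345, 23 and 57.43 CPM (2.11, SE 0.338). Repair genes were higher in all 4 mice in 13 of 26 cases (median 1.88). Ung, which removes uracil from DNA, stood at 88.52, 51.05, 73.17 and 73.16 against 18.09, 5.348, 25.97 and 10.54 CPM (2.46, SE 0.354), with no overlap. Brca1, a recombination factor, had counts in 42.4% of the members and 3.3% of the remaining cells, at 12.84 to 55.6 against 0 to 3.535 CPM.

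**Figure D3:**
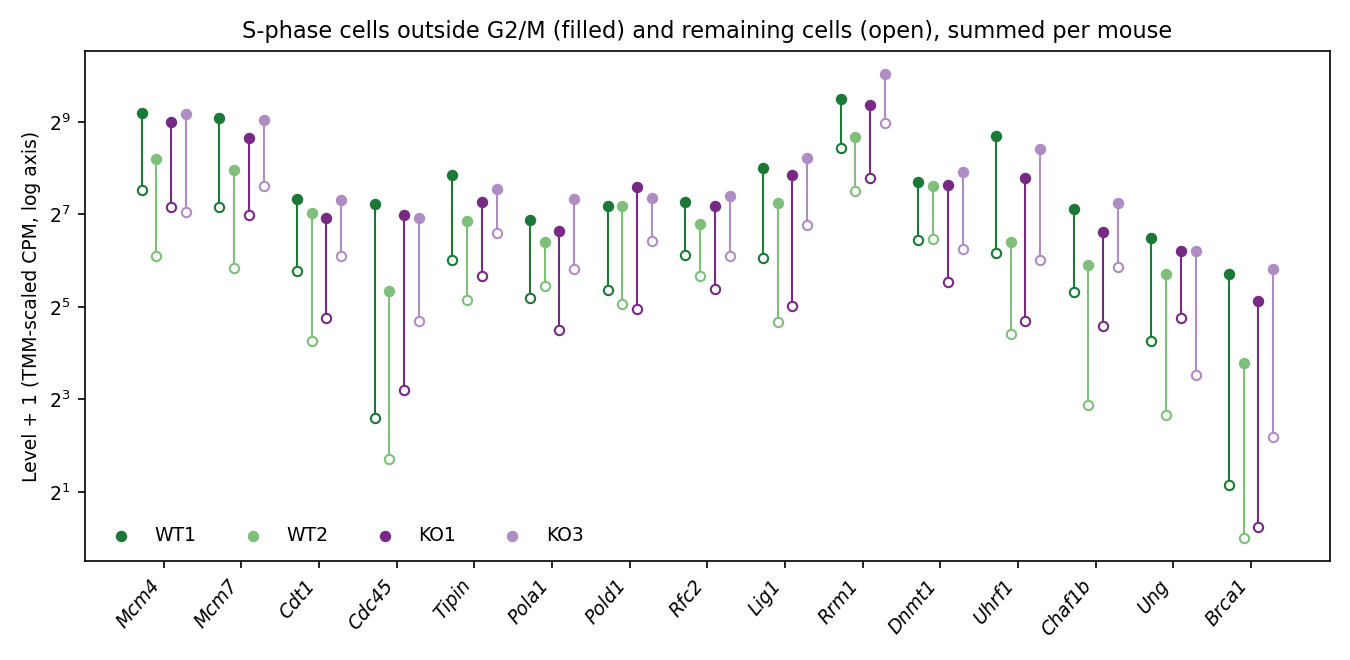
For selected replication and repair genes, the TMM-scaled CPM plus 1 of each mouse is plotted on a log axis, with filled points for the members, open points for the remaining cells and a line joining the 2 values of a mouse, coloured by mouse. The filled point lies above the open one in all 4 mice for each gene shown (Mcm4 at 293.4 to 584.1 against 67.3 to 184.2 CPM).

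G1/S regulators were mixed. Of 28 genes past the filter, 10 were higher and 3 lower in all 4 mice (median 0.69), where 6.38% and 9.53% of all genes tested were. The share lower was thus near that of all genes. Rbl1, the pocket protein p107, stood at 92.05, 60.5, 56.82 and 55.85 CPM against 11.49, 9.22, 17.7 and 14.24 (2.34, SE 0.314). Ccne1, the cyclin that starts replication, had counts in 44 of 59 members (74.6%; 61.6% to 85.0%) and 40 of 152 remaining cells (26.3%; 19.5% to 34.1%). In CPM it was 197.1, 14.45, 70.14 and 203.7 against 55.43, 10.52, 18.39 and 47.06, so the WT2 members overlapped the remaining cells. Cdk2, its kinase partner, stood at 103.9, 77.64, 74.49 and 118.3 against 46.33, 43.34, 48.12 and 73.22 CPM (0.83, SE 0.163). Tfdp1, the dimer partner of the E2F factors, stood at 213.6, 163.1, 207.6 and 241.2 against 129.3, 86.22, 92.81 and 136.5 CPM (0.91, SE 0.125).

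The 3 G1/S genes lower in the members of all 4 mice, a share near the 9.53% of all genes, included a D cyclin and Myc. Both act at entry into the cycle. Ccnd2 stood at 143.0, 40.67, 167.6 and 42.63 CPM against 240.3, 206.0, 379.2 and 61.44 (-1.19, SE 0.324), and had counts in 55.9% of the members and 77.6% of the remaining cells. Myc stood at 329.3, 636.5, 364.9 and 228.1 against 415.4, 883.3, 530.8 and 291.4 CPM (-0.43, SE 0.088). Ccnd1 and Ccnd3 did not follow Ccnd2: Ccnd3 was higher in all 4 mice (0.51, SE 0.184) and Ccnd1 in 3. Of 15 CDK inhibitor and quiescence genes, 0 were higher and 4 lower in all 4 mice (median -0.29), namely Cdkn1a, Cdkn2b, Btg2 and Pdcd4. Cdkn2b, which inhibits CDK4 and CDK6, stood at 4.858, 26.75, 13.09 and 17.85 against 28.88, 34.77, 25.07 and 49.98 CPM (-1.33, SE 0.445). It had counts in 23.7% of the members (6.2% in the lowest mouse) and 41.4% of the remaining cells. Cdkn1a, the p21 inhibitor, stood at 119.2, 272.2, 239.9 and 348.6 against 193.8, 297.9, 266.2 and 370.7 CPM (-0.27, SE 0.141). Within a mouse these 4 genes lay lower, and across mice the members and the remaining cells overlapped. Against the G2/M cells, Ccnd2 was higher in 2 mice and lower in 2 (0.05, SE 0.285), and Myc was higher in 3 (0.51, SE 0.251).

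The differentiation lists were uneven between mice. Of all genes tested against the remaining cells, 6.38% were higher and 9.53% lower in all 4 mice, and the counts below stand beside these shares. All 17 suprabasal keratinocyte genes past the filter had a negative log2 difference (median -1.13), but 4 were lower in all 4 mice, and the medians by mouse were -1.8, 0.18, -0.54 and -1.9. Grhl3, a transcription factor of the epidermal barrier, stood at 8.08, 18.14, 10.4 and 16.19 CPM against 120.9, 33.8, 85.93 and 113.4 (-2.69, SE 0.543), with no overlap. It had counts in 22.0% of the members (12.5% in the lowest mouse) and 33.6% of the remaining cells. Krt10, the early suprabasal keratin, was higher in KO1 and lower in 3 mice, and had counts in 47.5% of the members and 39.5% of the remaining cells. Krt16, a keratin of wounds and hyperplasia, stood at 624.6, 1598, 1603 and 1740 against 5128, 909.4, 2996 and 7119 CPM (-1.32, SE 0.668), reversed in WT2. The basal keratinocyte list did not share this: 0 of 18 were higher and 1 lower in all 4 mice (median -0.06). Ribosome biogenesis genes were higher in all 4 mice in 7 of 18 cases with small differences (median 0.28), among them Nolc1, a nucleolar phosphoprotein, at 320.7, 206.2, 288.4 and 322.2 against 235.8, 132.7, 211.6 and 267.6 CPM (0.45, SE 0.107). Glycolysis genes (1 higher, 1 lower of 21) and nuclear genes of oxidative phosphorylation (3 higher, 3 lower of 89) stood near 0 (medians 0.12 and 0). Immediate early and dissociation stress genes had 2 of 18 lower (median -0.23), a share near that of all genes. Against the G2/M cells, the suprabasal list had 7 positive and 9 negative log2 differences, and Grhl3 was lower in 3 mice (-0.43, SE 1.113). Low suprabasal transcripts were thus not particular to the members.

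**Figure D4:**
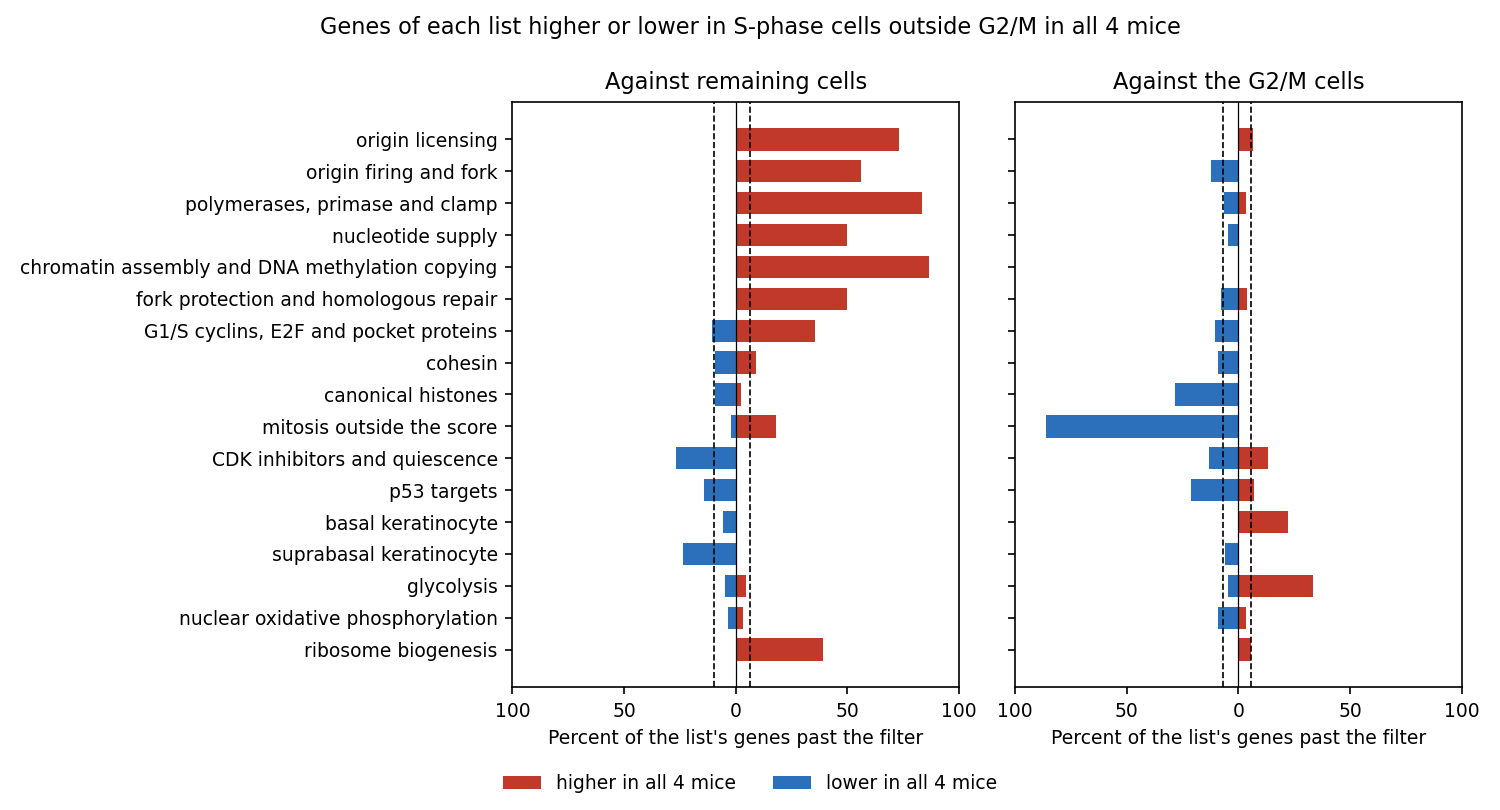
For each gene list, the bars give the percent of its genes past the filter that were higher (red, to the right) or lower (blue, to the left) in the members of all 4 mice, against the remaining cells in 1 panel and the G2/M cells in the other, with dashed lines at the percent of all genes tested. Replication lists reach farthest in the first panel (13 of 15 chromatin assembly genes and 25 of 30 polymerase genes higher) and the mitosis list in the second (38 of 44 lower).

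Against the G2/M cells the contrast turned from replication to mitosis. Of 44 mitosis genes outside the rule, 38 were lower in the members of all 4 mice, where 6.9% of all genes tested were, and DESeq2 called 23 lower (background 1.17%). Their median log2 difference was -2.17, and by mouse on log2(CPM + 1) it was -1.93, -3.75, -1.5 and -0.94. The rule set aside cells by 8 mitotic genes, so this direction is fixed by the choice and the sizes are descriptive. Plk1, a mitotic kinase, stood at 10.6, 6.626, 7.596 and 58.18 CPM in the members and 206.4, 105.5, 102.4 and 250.6 in the G2/M cells (-3.54, SE 0.429), without overlap. Aurka, the spindle pole kinase, stood at 19.36, 10.57, 3.769 and 30.18 against 65.52, 63.57, 39.72 and 92.55 CPM (-2.32, SE 0.382), also without overlap. Ccna2, the cyclin of S phase and G2, stood at 72.81, 3.55, 45.69 and 101.4 against 202.7, 157.1, 161.4 and 132.5 CPM, and had counts in 61% of the members, 86.3% of the G2/M cells and 17.8% of the remaining cells. The 2 genes with printed CHR letters, the spindle motor Kif11 and the spindle protein Ckap2l, stood at 18.31, 0, 11.66 and 31.08 and at 12.64, 0, 18.2 and 44.98 CPM in the members. In the G2/M cells they stood at 78.88, 77.35, 72.3 and 101.3 and at 94.62, 83.72, 45.12 and 88.9 CPM. Against the remaining cells, 8 of the 44 mitosis genes were higher and 1 lower in all 4 mice, where 6.38% and 9.53% of all genes tested were. The medians by mouse were 0.39, 0, 1.35 and 0.74. Against the G2/M cells, the KO3 members were the highest of the members in all 5 genes named here, and KO3 had the highest G2/M limit (6.15, against 5.28, 2.51 and 3.93).

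Replication genes differed between the members and the G2/M cells in no common direction over the mice. Of 124 genes, 3 were higher in all 4 mice, where 5.62% of all genes were, and 7 were lower, where 6.9% were (median -0.01). The medians by mouse were 0.37, -0.78, -0.33 and 0.62, positive in WT1 and KO3 and negative in WT2 and KO1. In the latter 2 mice the larger share of the highest S scores lay in the G2/M cells (56.7% and 44%), and its part in these signs was not tested. The count of 3 became 23 without WT2 (11.59% of all genes higher in those 3 mice), 10 without KO1 (11.16%) and 5 without WT1 (11.35%). The last 2 counts were 8.1% and 4.0% of the list, under the share of all genes. How members were scored also changed the count. With depth and detection trends removed from the scores it was 30 (24.2%, against 5.73% of all genes, median 0.37). With members from thinned counts it was 0 (5.44% of all genes, median -0.08). Mcm4 stood at 599.1, 301.0, 527.7 and 583.0 CPM against 386.3, 426.7, 411.7 and 237.7 (0.45, SE 0.291), higher in 3 mice and lower in WT2. Uhrf1 showed the same order, at 425.1, 85.51, 225.8 and 344.9 against 205.3, 321.9, 205.0 and 72.39 CPM (0.43, SE 0.705). Rrm1 was lower in 3 mice, at 739.7, 418.5, 676.2 and 1066 against 1006, 867.5, 854.6 and 742.7 CPM (-0.33, SE 0.253). Mcmbp, which binds the MCM complex, was 1 of the 3 genes higher in all 4 mice, at 164.4, 170.1, 159.4 and 199.7 against 115.6, 156.5, 155.8 and 113.7 CPM (0.37, SE 0.173).

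Some histone transcripts lay lower in the members of every mouse than in the G2/M cells. Canonical histone mRNAs end in a stem-loop and mostly lack a poly(A) tail, and Smart-seq2 primes on poly(A). Levels of many of them were at or near 0 in the sums. Of 46 past the filter, 13 were lower in all 4 mice (28.3%, where 6.9% of all genes tested were) and 0 higher. Without WT2, 20 of 42 were lower in every mouse left (47.6%, against 12.97% of all genes). Of the 6 with at least 10 CPM, 3 were lower in all 4 mice (7.61% of all genes were). Of 7 replacement histones, whose mRNAs can carry poly(A) tails, 3 were lower. H3f3b, a replacement histone H3 gene, was not among them, at 1582, 2754, 1903 and 2091 CPM against 2342, 2265, 1617 and 1991 (0.01, SE 0.157), higher in 3 mice. H2afx, the variant phosphorylated at DNA breaks, stood at 48.26, 27.92, 58.77 and 136.4 against 128.9, 123.0, 123.6 and 246.1 CPM (-1.36, SE 0.247). H1f0, a linker histone, stood at 60.22, 68.15, 75.25 and 120.6 against 160.0, 152.5, 173.4 and 206.1 CPM (-1.14, SE 0.156), without overlap. H2afz stood at 1189, 617.2, 1151 and 1692 against 1476, 1312, 1515 and 1789 CPM (-0.47, SE 0.174). Against the remaining cells H2afz was higher in all 4 mice instead (0.55, SE 0.136), at 794.5, 330.1, 702.0 and 1519 CPM there.

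Basal keratinocyte genes leaned higher in the members than in the G2/M cells, mostly in WT2 and KO3. The medians by mouse on log2(CPM + 1) were 0.12, 0.49, 0.04 and 0.67. A positive log2 difference was found for 18 of 18 (median 0.31 against -0.05 over all genes), and 4 were higher in all 4 mice (22.2%, where 5.62% of all genes tested were). Some differences were near 0, such as Krt14 (0.003, SE 0.069) and Itga6 (0.023, SE 0.274). Dst, which links keratin to the hemidesmosome, stood at 157.8, 373.7, 179.1 and 115.2 against 126.4, 191.1, 117.9 and 62.79 CPM (0.69, SE 0.153). Col17a1, the hemidesmosome collagen, stood at 1605, 2673, 1096 and 995.3 against 1457, 2025, 852.4 and 508.8 CPM (0.47, SE 0.146). The other genes higher in all 4 mice were Krt15 and the laminin receptor subunit Itga3. Differences between mice exceeded those between classes for these genes. Glycolysis genes were higher in all 4 mice in 7 of 21 cases (33.3%, against 5.62% of all genes) with a median of 0.1. Among them was the glucose transporter Slc2a1 at 338.3, 584.3, 276.5 and 278.8 against 310.4, 315.7, 225.2 and 195.8 CPM (0.45, SE 0.151). Ldha, lactate dehydrogenase, was lower in all 4 mice by little (-0.07, SE 0.054). The G2/M cells had more genes with counts per cell than the members in every mouse, and its part in these small differences was not tested.

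**Figure D5:**
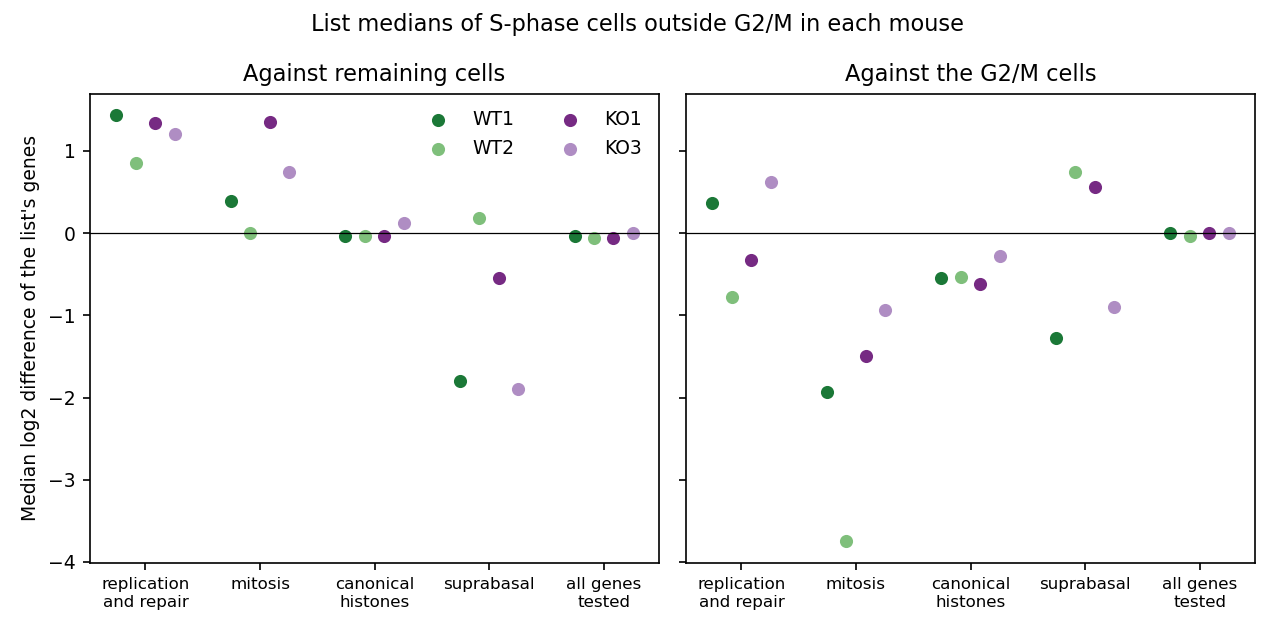
Points give the median log2(CPM + 1) difference of each gene list in each mouse, members minus remaining cells in 1 panel and members minus G2/M cells in the other. Replication lies above 0 in all 4 mice in the first panel (0.85 to 1.44) and on both sides of 0 in the second (-0.78 to 0.62).

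Against all other cells together, which mix the G2/M cells with the remaining cells, the members shared both contrasts. Here 40 of 124 replication and repair genes were higher in all 4 mice (4.66% of all genes were), with a median of 0.55 against -0.18 over all genes, and 77 without WT2 (10.11%). With depth and detection trends removed from the scores the count was 76 (61.3%, against 5.53% of all genes; median 0.81). Mitosis genes had 1 higher and 14 of 44 lower (9.74% of all genes were lower). The 14 genes that limma called on the mean log2 value per cell included 12 of the replication lists. They were Mcm4 (adjusted p = 0.000711), Lig1 (0.00196), Mcm7 (0.0187), Dnmt1 (0.0187), Hells (0.0195), Rfc2 (0.0231), Pold2 (0.0232), Uhrf1 (0.0253), Tipin (0.0253), Hat1 (0.0386), Rfc5 (0.0386) and Ung (0.0488), with the nuclear pore protein Nup85 (0.0418) and Fignl1 (0.0495), a recombination ATPase, beside them. All 14 lay higher in the members on that measure, and on sums Uhrf1 and Hat1 were higher in 3 of 4 mice.

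The genes of smallest p in the higher direction included Mcm7, Mcm4, Dnmt1, Pola1, Rbl1, Pold1, Rfc4, Tfdp1, Prim2, Rfc2 and Trim23, and none passed in edgeR (adjusted p = 0.72). Against the G2/M cells alone, the log2 differences of those named ran from 0.05 (Pold1) to 0.448 (Mcm4), apart from 2.921 for Trim23. Mcm4 stood at 590.0, 297.9, 519.2 and 571.4 CPM in the members and 255.8, 180.7, 233.1 and 169.7 in the other cells (1.21, SE 0.177), without overlap. Rbl1 stood at 92.98, 61.43, 57.6 and 55.71 against 31.6, 24.05, 34.13 and 21.15 CPM (1.27, SE 0.208), also without overlap. Trim23, a ubiquitin ligase outside the replication lists, had counts in 35.6% of the members, 11% of the G2/M cells and 15.8% of the remaining cells, at 16.68, 51.21, 37.26 and 13.33 against 3.532, 11.89, 13.84 and 4.898 CPM (1.80, SE 0.331).

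The 12 of smallest p in the lower direction were Pinlyp, Fgfr1, Lrrfip1, Tubb2a, Supt20, Aldh3a1, Flrt3, Elmo2, Ablim1, Sult2b1, Nupr1 and Mgmt, with the same adjusted p in edgeR. Against the G2/M cells alone, their log2 differences ran from -1.3 (Supt20) to 0.15 (Flrt3). Nupr1 and Aldh3a1 were small there (-0.23 and -0.151) and stood at -2.047 and -1.104 against the remaining cells, so their low level was largely shared with the G2/M cells. Fgfr1, a receptor for fibroblast growth factors, stood at 14.36, 9.133, 19.93 and 2.773 CPM against 66.02, 25.26, 71.03 and 14.26 (-1.96, SE 0.274; DESeq2 adjusted p = 3.45e-09, limma 0.518). The share of cells with counts for Fgfr1 was 47.5% in the members, 50.7% in the G2/M cells and 53.9% in the remaining cells, so the sums differed more than the shares. Tubb2a, a beta tubulin, stood at 20.97, 12.8, 14.31 and 29.88 against 100.5, 24.64, 58.23 and 147.1 CPM (-1.89, SE 0.291). Nupr1, a stress-induced chromatin protein, stood at 6.715, 17.72, 22.19 and 32.26 against 37.46, 77.05, 48.87 and 68.86 CPM (-1.70, SE 0.326). Sult2b1, the cholesterol sulfotransferase of the differentiating epidermis, stood at 78.98, 27.71, 66.35 and 124.3 against 249.8, 39.75, 127.6 and 359.0 CPM (-1.17, SE 0.224). Mgmt, which repairs alkylated guanine, had counts in 39% of the members, 57.2% of the remaining cells and 72.6% of the G2/M cells, and stood at 8.73, 17.17, 50.82 and 18.25 against 25.58, 41.73, 79.9 and 46.83 CPM (-1.21, SE 0.239). For Flrt3, an adhesion protein, the direction depended on the measure: it was -0.64 on sums and 0.23 on the mean log2 value per cell.

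Within the members, the genotypes were compared as 2 mice against 2. Sirt6 transcript was present in the members of all mice, at 8.4, 26.4, 15.3 and 13.2 CPM with counts in 12, 10, 8 and 12 cells, so the mice are called by their labels and transcript level does not separate them. Genotype cannot be told apart from plate: the members came from plate P3 in WT1, P3 (1 cell) and P4 (12) in WT2, P1 (11) and P2 (3) in KO1, and P2 in KO3. edgeR called 0 of 12721 genes (597 at unadjusted p under 0.05) and DESeq2 145 (0.465% above and 0.606% below wild type), and in simulated data of this size edgeR recovered 2% of 4-fold changes. Both mice labelled Sirt6-/- exceeded both wild-type mice for 17% of all genes and lay below both for 16.3%.

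Replication genes of the members had 20 of 123 (16.3%) above and 7 (5.7%) below in both mice labelled Sirt6-/- (median 0.27), a share near that of all genes above and under it below. Basal keratinocyte genes had 12 of 18 (66.7%) below both wild-type mice (median -0.84). Lamb3, a chain of the basement membrane protein laminin 332, stood at 408.3, 460.8, 161.9 and 213.4 CPM (-1.21, SE 0.244; edgeR adjusted p = 0.84). Cav1, the coat protein of caveolae, stood at 412.6, 281.7, 110.4 and 93.45 (-1.77, SE 0.292; DESeq2 adjusted p = 0.000261), without overlap. The interaction with class, which compares this genotype difference with that in the other cells, had a median of -0.05 over the basal list, and in edgeR that fit recovered 1% of simulated 4-fold changes. Mitosis genes had 19 of 44 (43.2%) above both wild-type mice (median 1.29), among them Cdc20, which activates the anaphase complex, at 113.4, 56.47, 197.8 and 360.6 CPM. The G2/M limit, which fixes how much mitotic transcript a member may hold, was 5.28 and 2.51 in the wild-type mice and 3.93 and 6.15 in the mice labelled Sirt6-/-, and its part in that count was not tested. Nuclear genes of oxidative phosphorylation had 38 of 88 (43.2%) above, with a small median of 0.18.

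The single genes of smallest p included Areg, an EGF receptor ligand, at 141.6, 151.0, 371.3 and 396.5 CPM in the members (1.39, SE 0.203; edgeR adjusted p = 0.84, DESeq2 0.000141). Pramef8 had counts in 0, 0, 8 and 5 members and stood at 0, 0, 55.66 and 18.08 CPM. Krt42, a type I keratin, stood at 787.7, 938.9, 146.3 and 77.3 CPM (-2.95, SE 0.394) with counts in 9, 3, 6 and 8 members, and is close in sequence to other keratins, so its reads may be shared. Tdg-ps and Gm9855 were higher in the mice labelled Sirt6-/- but are pseudogene or unnamed entries whose counts are uncertain. Ppp1r14c, a phosphatase inhibitor, was lower at 141.6, 165.1, 57.07 and 51.37 CPM (-1.50, SE 0.261). Crispld2, a secreted protein, stood at 76.71, 146.6, 1.58 and 5.087 CPM, with counts in 7, 5, 2 and 1 members.

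Whether the distance between the members and the other cells differed by genotype was tested as an interaction. edgeR called 0 of 15974 genes (adjusted p = 1; 494 at unadjusted p under 0.05) and DESeq2 called 128 (0.448% and 0.269% in the 2 directions). Among the genes of smallest p, Bms1, a ribosome assembly GTPase, stood at 83.48, 79.38, 171.6 and 163.7 CPM in the members and 122.9, 93.62, 83.14 and 88.34 in the other cells (1.37, SE 0.26). Its members lay below the other cells in both wild-type mice and above them in both mice labelled Sirt6-/-. Fgfbp1, which binds fibroblast growth factors, showed the opposite, at 420.4, 363.0, 153.8 and 311.3 against 288.7, 245.5, 238.5 and 541.3 CPM (-1.27, SE 0.18). Id3, an inhibitor of helix-loop-helix factors, stood at 289.6, 421.7, 415.5 and 429.3 against 322.9, 443.6, 251.3 and 208.1 CPM (1.00, SE 0.202). Krt17, a keratin of stressed epidermis, stood at 7046, 1568, 2258 and 2747 against 6798, 1389, 3673 and 4341 CPM (-0.79, SE 0.134).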

How the data were processed

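Expected counts per gene were deposited by the authors for each cell; STAR, RSEM and the builds mm10 and GRCm38 are named per the submitters' processing notes (versions: not given in the sources used here). Among 54247 gene IDs, 54156 matched the gene names of the annotation used here (GENCODE M21) and 91 did not, and 21.5% of the nonzero values were not whole, as estimated counts need not be. Where a symbol had 2 IDs, the one with more counts kept it. Cells were classed as the report states and counts were summed per mouse and class and rounded. Sums were filtered with filterByExpr, scaled by TMM and tested with edgeR 4.0.16 (quasi-likelihood, mouse as block, or genotype alone within the members; Benjamini-Hochberg threshold 0.05) in R 4.3.3. DESeq2 1.42.0 and limma 3.58.1 (mean log2(CPM + 1) per cell, pseudocount 1) were alternatives. Python used numpy 2.4.6, scipy 1.17.1 and pandas 2.3.3. The steps were tested on simulated data, with 100 genes changed by each fold size. Thinning drew 500000 counts per cell (seed 7). Median total counts per cell by mouse were 985014 to 1281992 in the members, and Smart-seq2 counts are reads, not molecules. Named genes against the other cells were those past the threshold, changed the same way in 4 mice and found in at least 20% of the cells of the higher class in every mouse; since none passed, the 12 of smallest p in each direction meeting the other conditions were used, and 5 in each direction for genotype and for the interaction. Members of the gene lists may also be named, and a few genes are not reported here. The members and the lists were chosen with earlier results of these data known. Same-mouse classes come from the same animal, which is the pairing of the block. All p-values rest on 4 mice, 2 of each genotype.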

Additional observations from a re-analysis of the deposited data

Results flagged for a closer look

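Across 68 sets of 4 mouse values, 4 had 1 mouse far from the other 3, and chance alone gives about 1 in 20 sets. Prim2, a primase subunit, was higher in the members than in the other cells by 1.08, 1.07 and 1.09 on the log2(CPM + 1) scale in WT1, WT2 and KO3 and by 0.65 in KO1. The median of the CDK inhibitor and quiescence genes against the remaining cells was -1.27 in WT1 and -0.13, -0.15 and -0.14 in the others. For canonical histones it was 0.13 in KO3 and -0.04, -0.03 and -0.03 in the others, all close to 0. For basal keratinocyte genes it was -0.35 in KO1 and 0.05, -0.01 and 0.05 in the others. Of 44 list differences set side by side by genotype, 1 went in opposite directions: nuclear genes of oxidative phosphorylation lay higher in the members than in the remaining cells of WT1 and WT2 (0.23 and 0.02) and lower in KO1 and KO3 (-0.11 and -0.24). The gap between genotypes was -0.3 and was not tested.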

How the results depend on the processing

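The number of calls depended on the tool. edgeR called 0 genes in each comparison, also when each mouse was left out (0 to 0) and without the replicate block, where 487, 576 and 373 genes had an unadjusted p under 0.05 against the other, the remaining and the G2/M cells. DESeq2 called 525, 657 and 236 genes in those comparisons, 145 between genotypes and 128 in the interaction. limma called 14 against the other cells, and edgeR called 3 against the remaining cells at 10 CPM or more. The genotypes share only the number 1, so no paired analysis was possible between them. Alternatives for counts over lists were chosen after seeing the data. Replication genes higher in every mouse numbered 82 against the remaining cells (84 to 97 leaving out a mouse), 40 against the other cells (43 to 77) and 3 against the G2/M cells (3 to 23). With a mouse left out, 3 mice had to agree in place of 4. Of all genes, 10.93% to 11.59% then lay above the G2/M cells, against 5.62% with all 4 mice. With members from scores without depth and detection trends, the counts against the other and the G2/M cells were 76 and 30, and with members from thinned counts the last was 0. Mitosis genes lower than in the G2/M cells numbered 38 (38 to 41), and canonical histones 13 (15 to 20), or 3 of 6 at 10 CPM or more. Flrt3 reversed to 0.23 on mean log2 values (-0.64 on sums). The cause of these changes was not tested. The difference in genes found per cell was 194.8 (86.7 to 249.7 leaving out a mouse) and 174.5 after thinning. Thinning before scoring gave 56 members, 55 of them shared with the 59, removing trends gave 67 (48 shared), a limit at the highest 1 in 4 by S score gave 43 (43 shared) and 1 limit over all cells gave 55 (39 shared, 3 of them from WT2). With 13 to 16 cells per mouse and 4 mice, low genes and genotype differences are the least certain.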
